A study of Mus musculus with 11 samples.

Results

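Iron uptake, heme synthesis and iron-sulfur cluster assembly were examined through 9 genes: Tfrc, Slc11a2, Slc40a1, Fth1, Alas1, Cpox, Fech, Nfs1 and Iscu. The genes were taken by name, with earlier results of these data known, and each was matched by symbol to 1 Ensembl ID among the 37583 gene IDs counted. By the GRCm38 annotation Tfrc and Cpox lie on chromosome 16, Slc11a2 on 15, Fth1 on 19, Alas1 on 9, Fech on 18, Iscu on 5, Nfs1 on 2 and Slc40a1 on 1. They were read in 5 tafazzin knockout (KO) and 6 wild-type (WT) clones of mouse granulocyte-monocyte progenitors, the precursors of neutrophils and monocytes. All 11 clones are C57BL/6 fetal liver cells of embryonic day 15.5 that carry ER-Hoxb8, an estradiol-dependent fusion that keeps progenitors dividing and immature. All grew with 0.5 uM estradiol and stem cell factor, and each is a line raised from a single cell. KO clones lack tafazzin, the enzyme encoded by Taz that remodels cardiolipin of the inner mitochondrial membrane. The titles give KO clones the number 3 or 4 and WT clones 1 or 2. The labels do not say what these numbers stand for. The p-values rest on the spread among clones alone, and whether clones with the same number had a common origin is not stated. Wherever a value is given for each clone, it stands in the order 3H, 3I, 4J, 4K, 4L within KO and 1A, 1B, 1C, 2D, 2E, 2F within WT.

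Iron enters these cells bound to transferrin. The transferrin receptor Tfrc carries it into endosomes, where a reductase converts it and the transporter Slc11a2 moves it to the cytosol. Ferritin, whose heavy chain is Fth1, stores it, and Slc40a1 (ferroportin) exports it. In mitochondria iron is used for heme and for iron-sulfur clusters, and heme is the cofactor of myeloperoxidase, an abundant granule enzyme of these progenitors. Iron-regulatory proteins tie the uptake and storage genes together. When iron is scarce they bind a hairpin, the iron-responsive element, in the untranslated ends of mRNAs, which protects Tfrc mRNA from decay and blocks translation of ferritin and ferroportin mRNAs.

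The hairpins are shown because the search below found them in 3 of the 9 genes. Of the elements found, those of Tfrc act on the level of the mRNA itself. The search ran on the transcript strand only, for a C, then 5 bases, the loop CAGTGN and 5 more bases, with the bases before the loop required to pair with those after it (G-T pairs allowed). The search covered the untranslated regions of GENCODE coding transcripts (build GRCm38). A match was found in the 3′ region of Tfrc at 4 places and in the 5′ region of Fth1 and of Slc40a1 at 1 place each. By this search 0.151% of genes had a match in a 5′ region and 0.614% in a 3′ region. Each is printed 5′ to 3′ as DNA letters, with 5 bases on each side of the matched letters and the loop in capitals. The Tfrc elements lie on the plus strand at chr16:32631220-32631246, chr16:32631599-32631625, chr16:32631664-32631690 and chr16:32631711-32631737, in this order. The Fth1 element lies on the plus strand at chr19:9982733-9982759 and the Slc40a1 element on the minus strand at chr1:45925466-45925492.
Tfrc 3′ element 1: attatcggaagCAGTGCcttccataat
Tfrc 3′ element 2: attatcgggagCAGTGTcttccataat
Tfrc 3′ element 3: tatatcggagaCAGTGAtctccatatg
Tfrc 3′ element 4: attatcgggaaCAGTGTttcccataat
Fth1 5′ element: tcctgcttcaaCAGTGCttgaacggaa
Slc40a1 5′ element: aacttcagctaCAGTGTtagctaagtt
All of them share the loop letters CAGTG because the search required these, and the last loop base, which was left free, is C, T or A. No match was found for Slc11a2, which says only that these letters with full pairing are not in its annotated untranslated regions. An element whose bases do not all pair would be missed, so the search does not show that Slc11a2 or another member lacks one. A match is a description of the letters and not a measured binding site.

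Reads counted in genes totalled 19778119 to 23658158 in KO clones and 21966954 to 27431544 in WT clones. Taz, the check of the labels, stood at 3.23 ± 0.685 CPM in KO clones and 39.1 ± 2.54 CPM in WT clones (SD, n = 5 and 6), where CPM (counts per 1 M counts) is on library sizes scaled by the TMM method. All 10 markers of granulocyte-monocyte progenitors passed the filter on low counts, with Mpo (myeloperoxidase) at 9387 ± 3240 CPM in KO and 9989 ± 2517 CPM in WT clones (SD). Of the 10, 3 had a positive and 7 a negative log2 fold change (median -0.08), and none was called by edgeR. The values ran from -2.03 ± 1.18 for Elane (SE; edgeR adjusted p = 0.371) to 0.26 for Fcgr3. Clone WT 2D had by far the highest summed level of markers of later neutrophil stages (1450 CPM, against 5.27 to 86.1 CPM in KO and 17.6 to 101 CPM in the other WT clones). Clone WT 1A had the highest summed level of erythroid markers (383 CPM, against 144 to 238 CPM in KO and 94.5 to 285 CPM in the other WT clones). Most of this sum in the other clones was Tal1, a factor that early progenitors also express, at 110.2 to 214 CPM in KO and 73.2 to 233 CPM in WT clones. Without Tal1 the other 12 markers summed to 18.02 to 41.7 CPM in KO clones and 21.2 to 51.6 CPM in WT clones other than WT 1A, which had 192 CPM. Of 13 erythroid markers 9 passed the filter, all with a negative log2 fold change (median -1.06), and of 10 later neutrophil markers 6 passed, likewise all negative (median -3.60). None of either list was called by edgeR or at 0 in all clones. Of 12 macrophage markers 4 passed, at a summed level of 29.7 to 64.0 CPM in KO and 21.3 to 67.7 CPM in WT clones, and Marco, Spic, C1qa and C1qc were at 0 in all.

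None of the 9 genes was called changed between KO and WT clones. Of the 9, 8 passed the filter on low counts and were tested, and 0 were called at an adjusted p under 0.05 in edgeR's quasi-likelihood test. Over all 11900 tested genes 5.05% were called, 2.76% higher and 2.29% lower in KO. DESeq2 and limma-voom also called 0 of the 8, and 1, Tfrc, had an unadjusted p under 0.05, which 20.3% of all tested genes had. Of the 8, 3 had a positive and 5 a negative log2 fold change, with a median of -0.10 against -0.0059 over all tested genes. For none of the 8 were the genotypes free of overlap, which held for 5.99% of all tested genes. In bulk RNA fewer cells of a kind and less RNA per cell cannot be told apart.

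**Figure D1:**
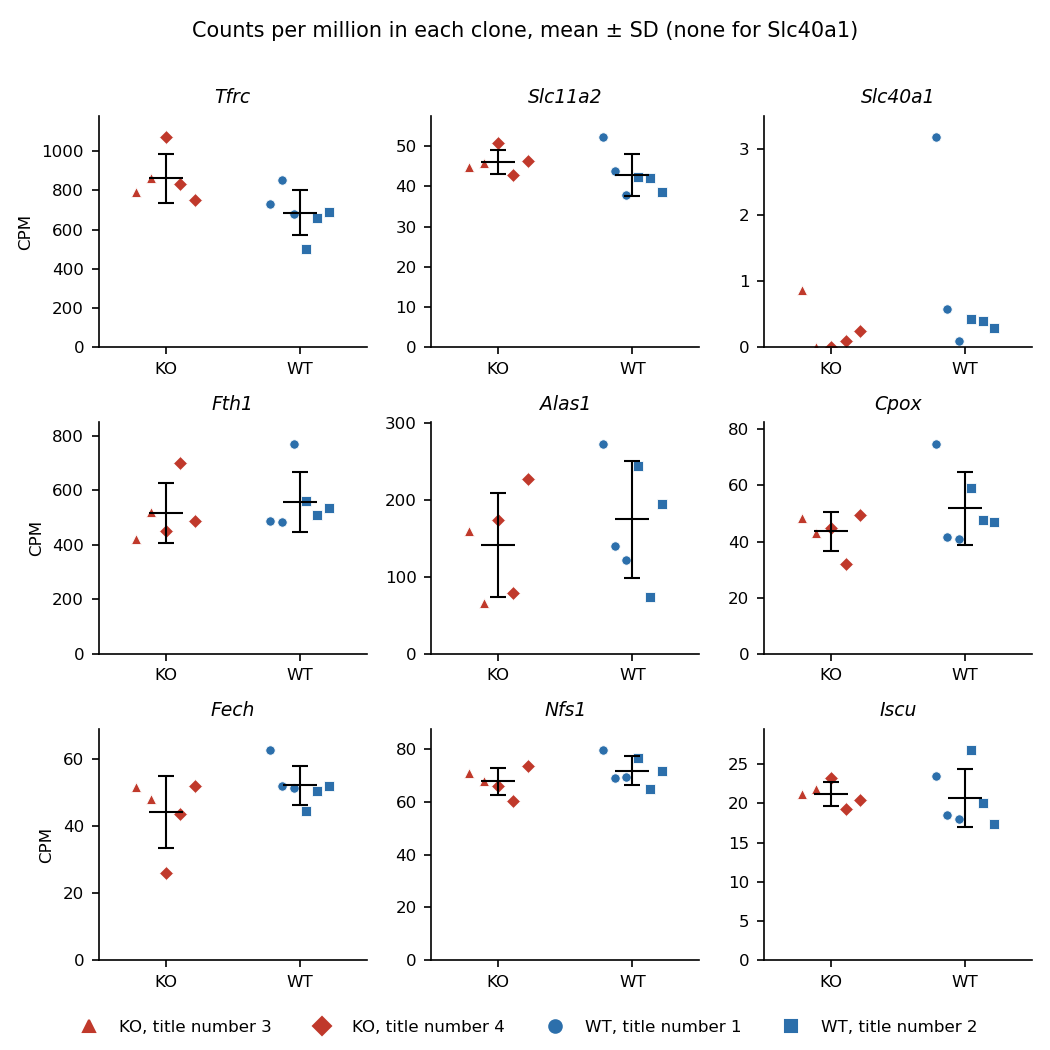
Normalised counts (CPM, y axes from 0) of the 9 genes in each clone, KO left and WT right in every panel. Marker shapes give the title number, and black bars the mean and SD of 5 KO and 6 WT clones, left out for Slc40a1. The genotypes overlap in every panel, Alas1 has the highest ratio of highest to lowest clone among the tested members (4.13), and 1 WT clone (1A) holds most of the Slc40a1 signal.

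Tfrc had the largest positive difference, and it did not pass the test. It had 793, 864, 1071, 830.2 and 752 CPM in KO clones. WT clones stood at 732, 855, 677, 499, 659 and 691 CPM. The 5 KO values lay above 5 of the 6 WT values, and WT 1B stood among the higher KO clones. The log2 fold change was 0.33 ± 0.13 (SE; edgeR adjusted p = 0.174), with a 95% interval of 0.05 to 0.61 before any adjustment. A 2-sided exact permutation test of log2 CPM over the 462 splits of the clones gave an unadjusted p = 0.026. The value was 0.25 without WT 2D, the lowest clone (adjusted p = 0.185), and 0.24 without KO 4J, the highest (adjusted p = 0.332). It passed the threshold in 1 of 27 other settings, with the title number as a random block (0.34, adjusted p = 0.0485). That setting had a negative consensus correlation (-0.21) and called 16.5% of all tested genes, against 5.05% in the reported fit. Over the 27 settings the adjusted p of Tfrc ranged from 0.0485 to 0.586.

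Slc11a2, the endosomal iron transporter, varied little. KO clones had 44.7, 45.7, 50.7, 42.7 and 46.2 CPM, and WT clones had 52.2, 43.8, 37.9, 42.3, 42.0 and 38.4 CPM. All KO values fell within the range of the WT clones. Its log2 fold change was 0.11 ± 0.08 (SE; edgeR adjusted p = 0.513), with a 95% interval of -0.07 to 0.29. An exon of Slc11a2 overlaps the oppositely oriented Gm5475 in the reference annotation, and both genes were counted. Counting ignored strand, so reads there cannot be assigned to 1 of the 2 genes, and ambiguous reads were left out of the counts.

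Slc40a1, the iron exporter, was near the limit of detection and was not tested. It had 17, 0, 0, 2 and 5 reads in KO clones, and 83, 16, 2, 10, 11 and 7 reads in WT clones. The WT 1A library held 83 of the 129 WT reads, and KO clones held 24 in all. A count of 0 allows up to 3 reads, or 0.127 CPM in KO 3I and 0.128 CPM in KO 4J, for counting error only. The clone with the most Slc40a1 reads, WT 1A, was also the one with the most erythroid marker RNA, whose part in this was not tested.

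Fth1, the ferritin heavy chain, had 423, 519, 451, 702 and 487 CPM in KO clones. WT clones had 487, 484, 772, 563, 508 and 536 CPM. One clone of each genotype stood apart on the high side, KO 4K and WT 1C, and the rest overlapped. Its log2 fold change was -0.11 ± 0.15 (SE; edgeR adjusted p = 0.742), with a 95% interval of -0.45 to 0.23, and it was 0.0019 without WT 1C. The ferritin light chain, Ftl1, averaged 60.0 ± 6.32 CPM in KO and 61.8 ± 5.20 CPM in WT clones (SD), a difference of -0.04 on the log2 scale (edgeR adjusted p = 0.811). Both ferritin genes have processed copies in the mouse genome and reads that fit several places were set aside in counting, so their levels are uncertain.

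Alas1 encodes the enzyme of the first and rate-limiting step of heme synthesis outside erythroid cells. It varied most among the tested members. It had 160, 66.1, 174, 78.4 and 227 CPM in KO clones, and 273, 140.3, 122, 244, 73.7 and 195 CPM in WT clones. Both genotypes held clones with low and clones with high values, and the highest of the 11 was 4.13 times the lowest. The within-genotype coefficient of variation was 45.5%, against a median of 10.7% over all tested genes. KO minus WT, the log2 fold change was -0.31 ± 0.39 (SE; edgeR adjusted p = 0.714), with a wide 95% interval of -1.18 to 0.56. Leaving out 1 clone at a time moved it between -0.55 (without KO 4L) and -0.13 (without KO 3I), and it was 0.09 without both WT 1A and WT 2D. The erythroid enzyme of the same step, Alas2, had 1 to 2 reads in each KO library and 1 to 15 in each WT library, with the 15 in WT 1A. Exons of Alas1 overlap the oppositely oriented 4930500F10Rik in the reference annotation, which has no count of its own in these data.

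The spread of Alas1 ran with that of some myeloid genes and against that of others, a pattern chosen after its values were seen. The 3 clones with the lowest Alas1, KO 3I, KO 4K and WT 2E, were also the 3 lowest for 6 of the 10 progenitor markers: Mpo, Elane, Prtn3, Ctsg, Ms4a3 and Spi1. Mpo stood at 6389, 5347 and 5847 CPM in KO 3I, KO 4K and WT 2E, against 11563 to 12057 CPM in the other KO clones and 8716 to 13248 CPM in the other WT clones. The transcription factor Spi1 (PU.1) stood at 113, 112 and 119 CPM in these 3 clones, against 151 to 162 CPM in the other KO and 132 to 190 CPM in the other WT clones. The other 4 progenitor markers had other lowest clones. Kit, the receptor of stem cell factor, and Cd34, a surface marker of progenitors, ran the opposite way (centred r = -0.78 and -0.84 with Alas1 over 11 clones that share library and depth, as a description). Both were lowest in WT 2D and next in WT 1A, the clones with the highest Alas1. The 6 tested markers of later neutrophil stages all had a positive centred r with Alas1, from 0.44 for Mmp8 to 0.90 for Cxcr2, likewise as a description. The clones low in Alas1 came from both genotypes.

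**Figure D2:**
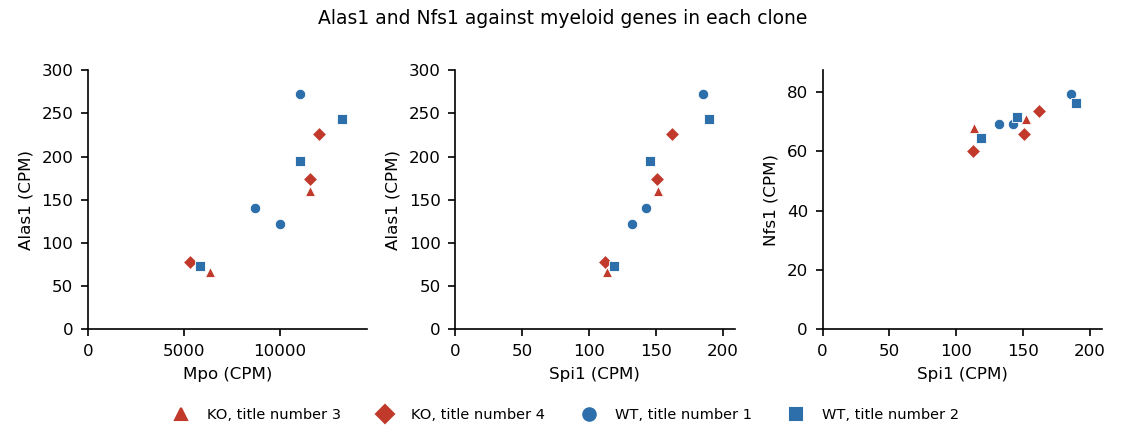
Levels of Alas1 against Mpo and against Spi1, and of Nfs1 against Spi1, in CPM on linear axes from 0. Each point is 1 of 11 clones, red KO and blue WT, with marker shape for the title number. KO 3I, KO 4K and WT 2E sit at the low end of Alas1, Mpo and Spi1, and both genotypes lie along the same run of points.

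Cpox encodes the mitochondrial enzyme that makes protoporphyrinogen. It had 48.5, 43.1, 44.9, 32.2 and 49.5 CPM in KO clones, and 74.9, 41.5, 41.1, 58.9, 47.8 and 46.9 CPM in WT clones. Apart from the low KO 4K and the high WT 1A and WT 2D the values lay close together. For Cpox the log2 fold change was -0.25 ± 0.17 (SE; edgeR adjusted p = 0.454), with a 95% interval of -0.62 to 0.13. It was -0.12 without WT 1A and -0.022 without both WT 1A and WT 2D. Exons of Cpox overlap the oppositely oriented Gpr15 in the reference annotation.

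Fech, the ferrochelatase that inserts iron into protoporphyrin, had 51.7, 48.1, 26.2, 43.6 and 52.1 CPM in KO clones. WT clones had 62.8, 52.1, 51.5, 44.6, 50.7 and 51.9 CPM. KO 4J lay well below all other clones and WT 1A above them. Fech had a KO minus WT difference of -0.24 ± 0.16 on the log2 scale (SE; edgeR adjusted p = 0.446), with a 95% interval of -0.59 to 0.12, and it was -0.10 without KO 4J.

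Nfs1, the cysteine desulfurase that supplies sulfur to nascent clusters, was the least variable member. It had 71.0, 68.0, 66.0, 60.2 and 73.5 CPM in KO clones, and 79.5, 69.1, 69.3, 76.4, 64.6 and 71.5 CPM in WT clones. The genotypes overlapped over most of their range. On the log2 scale KO minus WT was -0.08 ± 0.06 (SE; edgeR adjusted p = 0.514), and its 95% interval of -0.22 to 0.06 was the narrowest of the 8. Exons of Nfs1 overlap the oppositely oriented Romo1 in the reference annotation. They also overlap Gm28036 of the same strand, which has no count of its own in these data.

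Iscu, the scaffold on which clusters are built, had 21.2, 21.8, 23.3, 19.2 and 20.4 CPM in KO clones. WT clones had 23.4, 18.5, 18.01, 26.8, 20.02 and 17.4 CPM. The KO values lay inside the WT range. On the log2 scale KO minus WT was 0.04 ± 0.11 (SE; edgeR adjusted p = 0.902), with a 95% interval of -0.22 to 0.29.

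**Figure D3:**
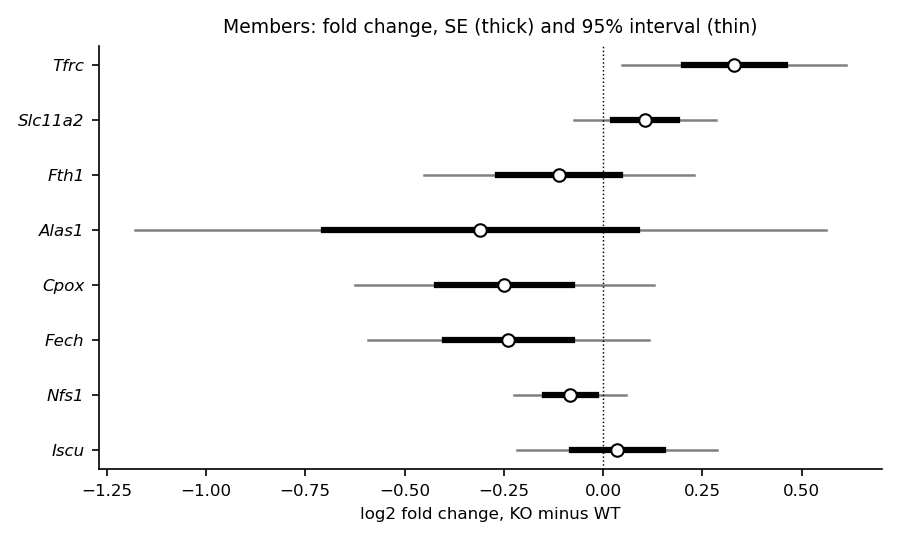
Log2 fold change, KO minus WT (x axis), of the 8 tested members, with the standard error as a thick bar and the 95% interval before adjustment as a thin bar. Tfrc, at 0.33, is the only member whose interval lies to 1 side of 0, Nfs1 has the narrowest interval and Alas1 the widest.

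WT 1A held the highest value of the 11 clones for 6 of the 9 members: Slc11a2, Slc40a1, Alas1, Cpox, Fech and Nfs1. How many of all tested genes were highest in WT 1A was not counted. Whether the 6 of 9 is particular to these members was therefore not tested. The erythroid regulators Gata1 and Klf1 were also highest there, at 39.3 and 19.9 CPM, against 8.80 to 16.6 and 1.18 to 5.03 CPM in KO clones. In the other WT clones they stood at 10.5 to 24.6 and 2.03 to 6.11 CPM. Leaving out WT 1A gave no member a call, with the lowest edgeR adjusted p at 0.173 for Slc11a2 and 0.220 for Tfrc. Between the title numbers within a genotype, 0 of the 8 tested members were called for KO 4 minus 3 or for WT 2 minus 1 (edgeR, adjusted p from 0.9997 to 1), nor was any of the 11900 tested genes, and the lowest unadjusted p among the 8 was 0.107.

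Per length, Fth1 and Tfrc stood far above the other members, in CPM per kilobase of annotated exon. The means over 11 clones were 155.5 ± 30.6 (SD) for Fth1 and 124 ± 23.6 for Tfrc, and Fth1 was the higher in 9 of 11 clones, so these neighbours did not separate beyond their spread. Alas1 followed at 25.8 ± 11.5 and Nfs1 at 19.4 ± 1.496, with Alas1 the higher in 8 of 11 clones. Iscu (9.61 ± 1.29) was above Cpox (7.22 ± 1.66) in 10 clones, and Cpox above Slc11a2 (6.97 ± 0.70) in 7, so that pair too overlapped. Fech stood at 3.52 ± 0.65 and Slc40a1 at 0.063 ± 0.10. Exon length is the union of all annotated exons, which understates genes with long rare exons.

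The genes most alike in their course over the 11 clones are named for the 3 members with the closest match, by Pearson's r of log2 CPM after centring each genotype. They were Rab32, Epb41 and Dap3 for Nfs1 (r = 0.98, 0.97 and 0.97). For Iscu they were Zfp511, Tbl3 and Nol10 (r = 0.98, 0.98 and 0.96), and for Cpox Srp72, 4930430F08Rik and Mei4 (r = 0.97, 0.96 and 0.95). These are the best among the tested genes over 11 points that share library and depth, given as a description. Between members the closest pair was Cpox and Nfs1 (r = 0.86 over the same 11 clones).

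Around the 9 members, some other genes of iron and heme handling were called. The lists were chosen with earlier results of these data known, so their share is no independent evidence. Of 94 genes in 8 lists of the pathway, the members included, 84 were tested and 9 were called (10.7%, against 5.05% over all genes). Of these, 3 rose and 6 fell in KO clones, and none was a member. The median log2 fold change of the 84 was -0.05. The count moved with the clones: leaving out 1 clone at a time gave 1 to 4 higher and 1 to 8 lower genes, and on counts summed per title number 0 were called in either direction. Over the 84 genes 10 had no overlap between genotypes, against 5.99% of all tested genes.

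**Figure D4:**
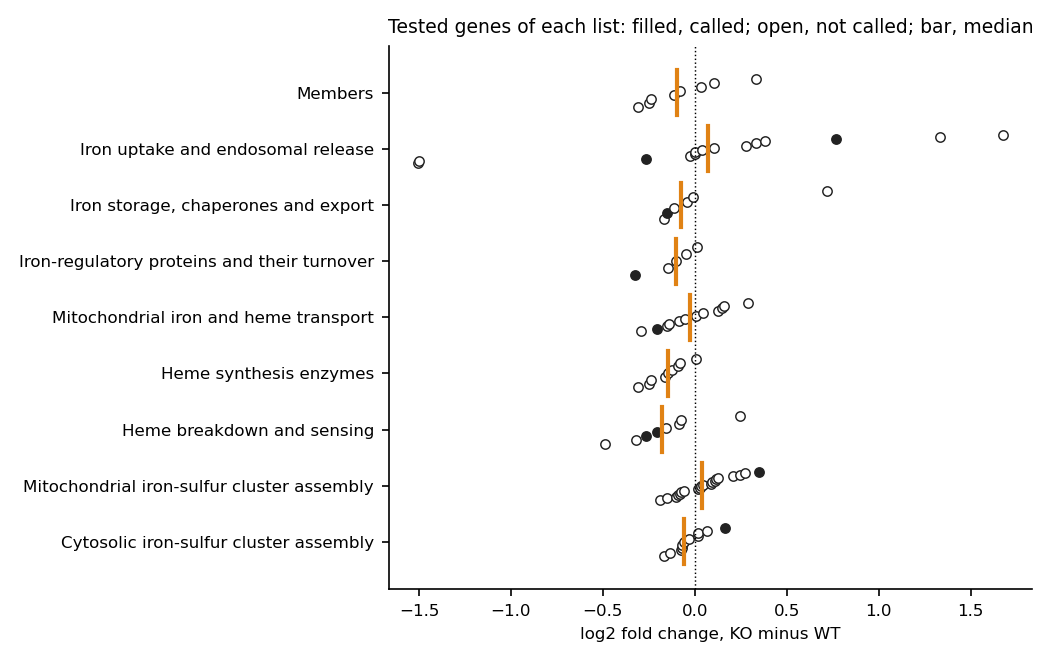
Log2 fold change, KO minus WT (x axis), of every tested gene in the members and in 8 lists of the pathway. Filled points were called by edgeR at an adjusted p under 0.05, open points were not, and orange bars are medians. Called genes are spread over 7 of the lists with 1 or 2 in each, none is a heme synthesis enzyme, and all but Slc39a14 lie within 0.4 of 0.

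Among 5 genes of the iron-regulatory proteins and their turnover, 1 fell and none rose. This was Aco1, which encodes the cytosolic aconitase that becomes an iron-regulatory protein when it lacks its iron-sulfur cluster. It had 73.1, 76.8, 66.9, 77.2 and 64.9 CPM in KO clones, and 92.5, 88.0, 90.6, 95.1, 88.3 and 84.8 CPM in WT clones. Every KO clone was below every WT clone. The log2 fold change was -0.32 ± 0.05 (SE; edgeR adjusted p = 0.00850), and the call held without any 1 clone (highest adjusted p = 0.0260). It was made in 24 of 27 settings, and was lost on counts summed per title number (adjusted p = 0.0687) and without title number 1 (0.133) or 4 (0.158). The other iron-regulatory protein, Ireb2, had 170 ± 7.34 CPM in KO and 176 ± 4.16 CPM in WT clones (SD), a difference of -0.05 on the log2 scale (edgeR adjusted p = 0.452). Fbxl5, the iron-sensing ubiquitin ligase subunit that removes it, showed 0.01 on the log2 scale (adjusted p = 0.946). Skp1a was the most abundant per length, at 123 and 132 CPM per kilobase in KO and WT clones (log2 fold change -0.10, adjusted p = 0.152).

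Among 14 tested genes of iron uptake, 1 rose and 1 fell. Slc39a14, a transporter of iron not bound to transferrin, of zinc and of manganese, had 26.4, 24.9, 26.3, 31.2 and 20.9 CPM in KO clones. WT clones had 14.9, 12.2, 13.6, 19.1, 17.4 and 14.1 CPM. All KO clones lay above all WT clones. The log2 fold change was 0.77 ± 0.13 (SE; edgeR adjusted p = 0.00908), and the call held without any 1 clone (highest adjusted p = 0.0268). It was made in 23 of 27 settings, and was lost on counts summed per title number (adjusted p = 0.0652) and without title number 1 (0.134), 3 (0.0835) or 4 (0.148). Steap3, the endosomal reductase that acts before Slc11a2, fell to 74.9 ± 4.36 CPM in KO clones, against 90.1 ± 6.36 CPM in WT clones (SD). Its log2 fold change was -0.27 ± 0.06 (SE; edgeR adjusted p = 0.0280), and the call was lost without any of 6 clones (WT 1A or 1B, or KO 3I, 4J, 4K or 4L; highest adjusted p = 0.0658). Steap3 was called in 15 of 27 settings, with adjusted p up to 0.366 over them. The second transferrin receptor, Tfr2, showed 0.0026 ± 0.24 on the log2 scale (adjusted p = 0.998). Tfrc was the most abundant of the list per length over all clones, close to Snx3, a sorting protein (139 CPM per kilobase for Tfrc and 120.3 for Snx3 in KO clones), and Snx3 was above it in WT clones (111 for Tfrc and 123 for Snx3).

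Among 6 tested storage, chaperone and export genes only Pcbp1 was called. It encodes a poly(C)-binding protein that delivers iron to ferritin, and it was the most abundant of the list per length. It fell to 548 ± 13.5 CPM in KO clones, against 610 ± 27.1 CPM in WT clones (SD). On the log2 scale this was -0.15 ± 0.04 (SE; edgeR adjusted p = 0.0342). Leaving out any KO clone, or WT 1A, 1B or 1C, ended the call (highest adjusted p = 0.0847). The call was made in 12 of 27 settings, with adjusted p up to 0.392 over them. Exons of Pcbp1 overlap 1600020E01Rik in the reference annotation. Ncoa4, the receptor that takes ferritin to lysosomes, showed -0.17 ± 0.07 on the log2 scale (adjusted p = 0.181). Of this list 6 genes were too low to test, among them the copper oxidases Heph and Cp.

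No gene of the heme synthesis list was called. The 9 tested were enzymes of the pathway and Clpx. Of the 9, 8 had a negative fold change, with a median of -0.15 and a range from -0.31 for Alas1 to 0.01 for Uros. None had an unadjusted p under 0.05. The summed level of markers of erythroid cells, which make much heme, ran from 144 to 238 CPM in KO and from 94.5 to 383 CPM in WT clones, or without Tal1 from 18.02 to 41.7 CPM in KO and from 21.2 to 192 CPM in WT clones, and its part in these signs was not tested. Per length the order of the 9 ran from Alas1 (25.8 ± 11.5 CPM per kilobase, SD over 11 clones) and Urod (19.5 ± 1.81) down to Uros and Fech. Among 12 tested genes of mitochondrial iron and heme transport 1 was called, Tmem14c, an inner-membrane protein needed for heme synthesis in erythroid cells and the most abundant of its list per length. It fell to 116 ± 5.97 CPM in KO clones, against 134 ± 5.43 CPM in WT clones (SD), a difference of -0.21 ± 0.04 on the log2 scale (SE; edgeR adjusted p = 0.0209). It lost the call without KO 3I or 4K (highest adjusted p = 0.0588). The mitochondrial iron importers Slc25a37 (0.29, adjusted p = 0.180) and Slc25a28 (0.12, adjusted p = 0.295) had positive and Abcb10 (-0.29, adjusted p = 0.132) a negative log2 fold change, none called.

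Of 8 heme breakdown and sensing genes 2 fell. Pgrmc2, a membrane protein that carries heme, fell to 72.7 ± 3.90 CPM in KO clones, against 83.8 ± 3.35 CPM in WT clones (SD), a difference of -0.20 ± 0.04 on the log2 scale (SE; edgeR adjusted p = 0.0266). It lost the call without any of 6 clones (WT 1B, 1C or 2F, or KO 3I, 4K or 4L; highest adjusted p = 0.0727). The call was made in 15 of 27 settings, with adjusted p up to 0.25 over them. Eif2ak1, the kinase that is held inactive by heme and phosphorylates eIF2alpha, fell to 76.4 ± 2.56 CPM in KO clones, against 91.9 ± 8.28 CPM in WT clones (SD), a difference of -0.27 ± 0.06 on the log2 scale (SE; edgeR adjusted p = 0.0335). Its highest KO value, 80.1 CPM in 3H, and its lowest WT value, 80.2 CPM in 2E, nearly met. Leaving out any KO clone, or WT 1A, 1B or 2F, ended its call (highest adjusted p = 0.0854). Eif2ak1 was called in 12 of 27 settings, with adjusted p up to 0.413 over them. Its exons overlap the oppositely oriented Ankrd61 and Aimp2 in the reference annotation. The heme oxygenases Hmox1 (0.25 ± 0.31, adjusted p = 0.705) and Hmox2 (-0.32 ± 0.09, adjusted p = 0.0587) were not called. Pgrmc1, the most abundant of the list per length, showed -0.07 on the log2 scale (adjusted p = 0.245).

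**Figure D5:**
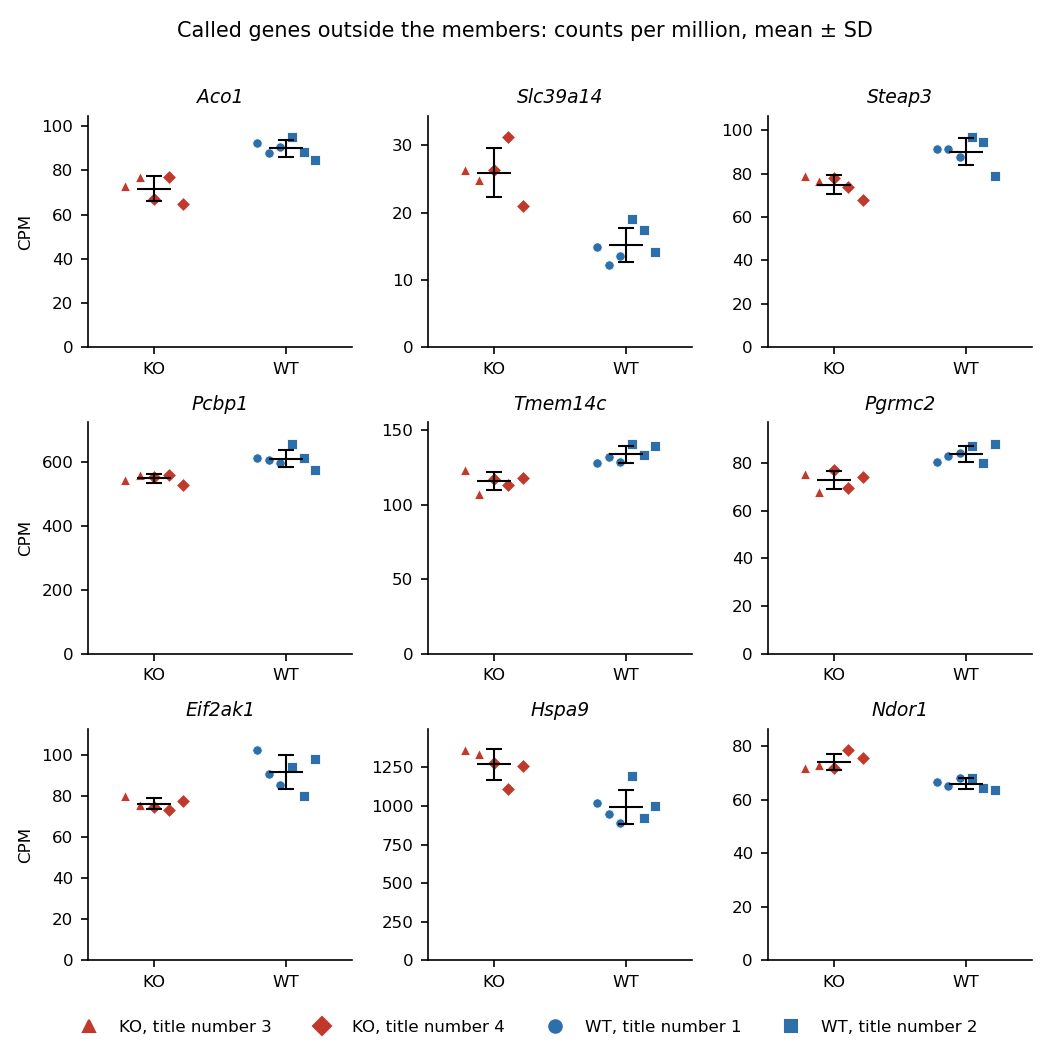
Normalised counts (CPM, y axes from 0) of the 9 called genes of the pathway lists in each clone, KO left and WT right. Marker shapes give the title number and black bars the mean and SD of 5 KO and 6 WT clones. KO clones are higher for Slc39a14, Hspa9 and Ndor1 and lower for the other 6, and Hspa9 alone overlaps.

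Among 20 tested genes of mitochondrial iron-sulfur cluster assembly 1 rose and none fell, with a median log2 fold change of 0.04. Hspa9, the mitochondrial chaperone that helps release clusters from Iscu, stood at 1269 ± 98.03 CPM in KO and 995 ± 109 CPM in WT clones (SD), a difference of 0.35 ± 0.08 on the log2 scale (SE; edgeR adjusted p = 0.0311). Its call depended on 8 clones, each of which lost it when left out (WT 1A, 1B, 1C and 2F, KO 3H, 3I, 4J and 4L; highest adjusted p = 0.0817). Hspa9 was called in 15 of 27 settings, with adjusted p up to 0.259 over them. Its partner Hscb (0.13 ± 0.08, adjusted p = 0.403) and the desulfurase subunit Lyrm4 (0.12 ± 0.07, adjusted p = 0.353) were not called. Among 11 cytosolic assembly genes 1 rose and none fell. Ndor1, a reductase that passes electrons into this pathway, stood at 74.2 ± 2.95 CPM in KO and 66.1 ± 1.95 CPM in WT clones (SD), a difference of 0.17 ± 0.04 on the log2 scale (SE; edgeR adjusted p = 0.0266), and lost the call without any of 5 clones (WT 1B or 2F, or KO 3I, 4K or 4L; highest adjusted p = 0.0690). Ndor1 was called in 15 of 27 settings, with adjusted p up to 0.326 over them. Exons of Ndor1 overlap the oppositely oriented Tmem203 in the reference annotation. Fam96a, the most abundant of that list per length, showed -0.17 ± 0.04 on the log2 scale (adjusted p = 0.0529).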

How the data were processed

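RNA was measured in 5 KO and 6 WT clones, grouped by their titles. The protocols in the labels describe polyA selection and a strand-specific kit. The deposited counts are the authors' raw read numbers per Ensembl gene and clone, without normalisation or pooling. The submitters' processing notes name STAR, HTSeq, edgeR and build mm9, with no version, and a mark in the deposited counts says that strand was ignored. Reads in no gene (5.41 to 6.94% of gene counts plus the reads in no gene and the ambiguous reads) and ambiguous reads (2.70 to 2.93%) were left out of library sizes. Every pair of clones of 1 genotype differed by more than sampling noise. Of 37583 IDs, 87.4% matched a symbol in GENCODE M21 (GRCm38), used for names, exon lengths, overlaps and hairpin coordinates.

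KO was compared with WT by edgeR's robust quasi-likelihood test (TMM, filterByExpr, Benjamini-Hochberg over all 11900 tested genes), with standard errors worked back from F. The alternatives changed the normalisation (RLE, upper quartile, library sizes without the 10 most abundant genes), the filter (none, or at least 1 CPM in every clone of a genotype), the tool (DESeq2, limma-voom), the robust setting or the use of the title number (random block, summed counts, set means), or left out clones or title numbers. Leaving out WT 1A together with WT 2D was chosen after seeing the data. In simulated counts for this comparison (11900 genes, 200 of them changed), the share recovered was 46.3% for 1.5-fold changes, 79.1% for 2-fold and 92.4% for 4-fold, and 5 of 150 calls were false. No change under 1.5-fold was simulated. The shares therefore do not cover differences as small as those of the members (log2 fold change -0.31 to 0.33) or of most called list genes. The members and lists were chosen with earlier results of these data known. Named genes are all members and, from each list, up to 4 called genes and the most abundant per length, with others of the lists where useful. The likeness rule takes the 3 genes of highest r for each of 3 members. Software was edgeR 4.0.16 and limma 3.58.1 in R 4.3.3, with DESeq2 1.42.0, and figures were drawn in matplotlib 3.10.9. The result of 1 gene of the lists is not reported here.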

Additional observations from a re-analysis of the deposited data

Results flagged for a closer look

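Fth1 in WT 1C stood apart from the other clones of its genotype at 772 CPM. The nearest WT clone had 563 CPM and the lowest 484 CPM, a gap of 0.72 of the range of the 6 WT clones. Dixon's ratio at the 95% level marks about 1 group in 20 by chance, and 36 groups (18 genes in 2 genotypes) were looked at. The highest KO clone, 4K, had 702 CPM and was not marked. Slc40a1, which was under the filter on low counts, carries no mark here. Its WT 1A value was 3.19 CPM, against 0.0910 to 0.582 CPM in the other WT clones.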

How the results depend on the processing

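The count of 0 called members held in 26 of 27 settings. With the title number as a random block (consensus correlation -0.21) 1 was called, Tfrc (0.34, adjusted p = 0.0485), with 10 wider list genes higher and 16 lower. Against 3 higher and 6 lower list genes in the reported fit, DESeq2 gave 11 lower, 4 set means 2 lower, and counts summed per title number 0 and 0. Without title number 1, 3 or 4, 0 were higher and 0, 1 and 0 lower. Without both WT 1A and WT 2D 5 were higher. Leaving out 1 clone gave 1 to 4 higher and 1 to 8 lower. Over all genes the call total ran from 32 (without title number 4) to 1963 (random block), with 601 in the reported fit, 329 without a filter and 1261 by DESeq2. Among members, signs turned for Fth1 (-0.25 to 0.0019 over single omissions), Iscu (-0.0102 to 0.1227 over single omissions, -0.014 without title number 1) and Alas1 (0.0858 without both WT 1A and WT 2D); the cause was not tested. No paired analysis was possible because the genotypes share no title number. Depth limits Slc40a1 and Alas2, which stayed under the filter, and the spread of Alas1 leaves its 95% interval wider than 1 log2 unit.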

Other observations

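Some genes of iron handling differed strongly between clones of 1 genotype, and none of those given here was called by edgeR. Cd163, a receptor for hemoglobin bound to haptoglobin, had 15.5 and 16.1 CPM in KO 3H and KO 4K and 12.0 CPM in WT 1B, against 0.0849 to 0.935 CPM in the other KO clones and 0 to 3.00 CPM in the other WT clones. Slc39a8, a relative of Slc39a14, had 3.27 to 10.8 CPM in KO clones and 0.145 to 3.87 CPM in WT clones (log2 fold change 1.68 ± 0.68, SE; edgeR adjusted p = 0.191). Lcn2, which binds bacterial iron carriers, was at 10.7 to 67.1 CPM in KO clones and 4.53 to 96.0 CPM in WT clones, with the 96.0 in WT 2D. Slc11a1, a phagosomal metal transporter related to Slc11a2, was at 0.0941 to 0.425 CPM in KO clones and 0.269 to 1.27 CPM in WT clones (log2 fold change -1.50 ± 0.47, SE; edgeR adjusted p = 0.0993). Apart from these, Isca1 and Ciao1 did not overlap between genotypes, which held for 5.99% of all tested genes. Neither was called (edgeR adjusted p = 0.108 and 0.242), and in both the genotypes nearly met. The lowest KO and highest WT values of Isca1 were 16.61 and 16.53 CPM. The highest KO and lowest WT values of Ciao1 were 62.2 and 62.4 CPM.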
